A study of Mus musculus with 6 samples.

Results

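Toll-like receptors are membrane sensors of microbial molecules and of some products of damaged tissue, and Cd14 is a lipid-binding protein that hands lipopolysaccharide to Tlr4. The 10 genes described here are Tlr1, Tlr2, Tlr4 and Tlr6, which act at the cell surface, Tlr3, Tlr7, Tlr8, Tlr9 and Tlr13, which act in endosomes, and the coreceptor gene Cd14. They were taken by gene symbol from the 17973 rows of the mRNA count table, where all 10 were found and all 10 passed the filter on low counts. The libraries were made from whole lungs of C57BL/6 mice, 3 labelled control and 3 labelled silicosis. For silicosis, silica was instilled once into the trachea, at a dose of 8 mg suspended in 40 µL of saline, and lungs were frozen at 90 days. The controls are called sterile saline samples in the series text. Age and sex of the mice are not among the labels used. The labels do not tie the libraries of a group to separate mice, so every p-value measures the spread between these libraries, which may be technical.

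Tlr1 and Tlr6 lie on chromosome 5, Tlr2 on 3, Tlr4 on 4, Tlr3 on 8, Tlr9 on 9, Cd14 on 18, and Tlr7, Tlr8 and Tlr13 on X. Surface receptors bind lipids, lipoproteins and proteins outside the cell, whereas endosomal receptors bind nucleic acids taken up or released inside it. On binding, the receptors recruit the adaptors Myd88 or Ticam1, which lead to NF-kB, to interferon regulatory factors and to cytokine genes. In lung the best known carriers are macrophages, monocytes, neutrophils, dendritic cells and B cells, and epithelial and endothelial cells carry some of the receptors. In RNA from whole lung, a change in the number of cells of a type and a change in RNA per cell cannot be told apart.

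The mRNA libraries held between 33698920 and 44000748 counts. Values are normalised counts (CPM), scaled by library size and the TMM factors of edgeR. Control libraries are C7, C8 and C9, and silicosis libraries are N129, N136 and N138. Fold changes are silicosis over control on the log2 scale with their standard error (SE), and a gene is called where the adjusted p of edgeR's two-sided quasi-likelihood test over all 15808 tested mRNAs is under 0.05. The lung label was checked against markers: Sftpc, the surfactant protein C of alveolar type 2 cells, stood at 9438 ± 755 CPM in control and 9119 ± 2291 in silicosis (SD, n = 3), the flattest of 5 alveolar epithelial markers, of which 3 were called lower.

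Promoters are shown for the 2 receptors with the steepest rises, Tlr2 and Tlr13, and for 2 receptors that were not called, Tlr3 and Tlr9, so that their letters can be set beside their values. Each is the 250 bases before the gene's start in RefSeq (GRCm38.p6), printed 5′ to 3′ on the gene's strand. Capitals mark matches on either strand to 4 motifs: the NF-kB site (searched by its consensus), the AP-1 motif TGANTCA, the PU.1 motif GAGGAAGT and the interferon regulatory factor motif GAAANNGAA.
Tlr2 (chr3:83841609-83841858, minus strand): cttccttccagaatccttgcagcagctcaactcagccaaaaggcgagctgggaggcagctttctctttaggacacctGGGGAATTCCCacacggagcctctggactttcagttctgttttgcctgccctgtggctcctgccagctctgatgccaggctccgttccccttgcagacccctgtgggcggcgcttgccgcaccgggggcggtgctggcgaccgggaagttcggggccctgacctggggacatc
Tlr13 (chrX:106143025-106143274, plus strand): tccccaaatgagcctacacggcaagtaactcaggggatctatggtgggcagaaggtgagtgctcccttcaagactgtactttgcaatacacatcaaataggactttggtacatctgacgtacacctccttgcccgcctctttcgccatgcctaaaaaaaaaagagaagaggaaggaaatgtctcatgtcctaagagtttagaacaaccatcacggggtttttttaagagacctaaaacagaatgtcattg
Tlr3 (chr8:45410381-45410630, minus strand): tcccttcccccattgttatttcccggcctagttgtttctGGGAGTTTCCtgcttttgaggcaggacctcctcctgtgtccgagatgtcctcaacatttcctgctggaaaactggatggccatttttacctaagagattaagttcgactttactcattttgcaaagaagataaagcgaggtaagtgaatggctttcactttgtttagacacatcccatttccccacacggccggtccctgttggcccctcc
Tlr9 (chr9:106222348-106222597, plus strand): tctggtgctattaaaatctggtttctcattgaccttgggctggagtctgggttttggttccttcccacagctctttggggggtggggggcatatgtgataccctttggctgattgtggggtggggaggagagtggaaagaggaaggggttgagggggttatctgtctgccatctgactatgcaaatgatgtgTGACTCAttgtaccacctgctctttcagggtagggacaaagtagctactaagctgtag

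The Tlr2 window held 2 overlapping matches to the NF-kB site, the first starting 173 bases before the gene's start. Tlr3 held 1 NF-kB match, 211 bases before the start, and Tlr9 held 1 AP-1 match. In the Tlr13 window none of the 4 motifs was found, which says only that these letters are not in these 250 bases. RefSeq promoters were matched by symbol for 7 of the 10 genes, 9 windows in all. Among the others, 1 of 2 Tlr1 windows held a PU.1 match, 1 of 2 Tlr6 windows held 2 overlapping interferon regulatory factor matches, and the Tlr8 window held 1. Of 32851 RefSeq promoter windows of the same length, 7.25% held an NF-kB match, 6.75% an AP-1 match, 2.44% a PU.1 match and 7.13% an interferon regulatory factor match. Of the 15734 windows that belong to tested mRNAs, 8.94% held an NF-kB match and 5.17% an AP-1 match. For PU.1 the share was 2.45%, and for interferon regulatory factors it was 6.43%. The matches are descriptions of sequence, and binding was not measured.

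In silicotic lung, 7 of the 10 genes were higher and 0 lower by edgeR. They were Cd14, all 4 surface receptors, and Tlr13 and Tlr7 among the endosomal receptors. Over all 15808 tested mRNAs, 15.3% were called higher and 16.5% lower. The changes of the 7 genes ran from 1.85-fold for Tlr7 to 6.05-fold for Cd14. Tlr3, Tlr8 and Tlr9 were not called, with log2 fold changes of -0.06, 0.13 and -0.08. For the 7 called genes each of the 3 silicosis libraries lay above each of the 3 controls, a pattern shown by 23.7% of all tested mRNAs.

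**Figure D1:**
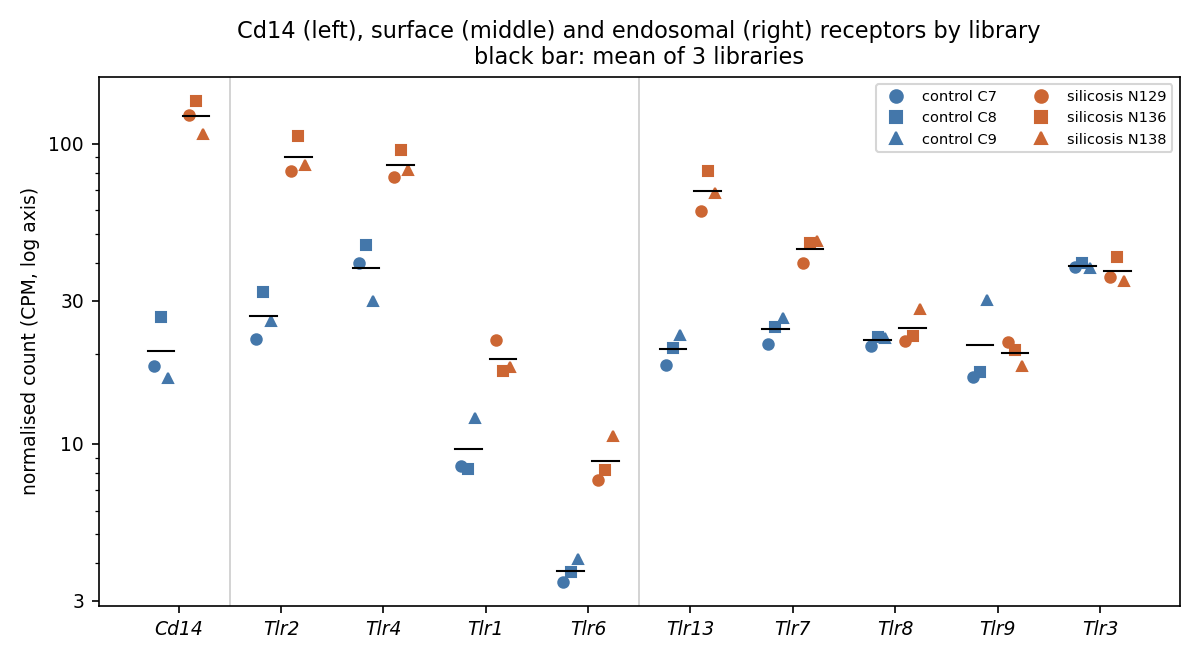
Normalised counts (CPM, log axis) of the 10 genes in each library, with symbols for the libraries and black bars for group means. The silicosis points lie clear of the control points for Cd14, the 4 surface receptors, Tlr13 and Tlr7, and the groups overlap for Tlr8, Tlr9 and Tlr3.

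Cd14 changed most. It is a GPI-anchored and also secreted protein with no signalling domain of its own, and it serves Tlr4 and several other receptors. Its level was 18.2, 26.5 and 16.5 CPM in C7, C8 and C9 and 124, 139 and 107 CPM in N129, N136 and N138. The lowest silicosis library was thus far above C8, the highest control. The log2 fold change was 2.60 (SE 0.18, edgeR adjusted p = 5.04e-05), and no window of its transcript was shared with another gene.

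Tlr4, the lipopolysaccharide receptor, had 39.9, 46.0 and 29.9 CPM in C7, C8 and C9. In N129, N136 and N138 it had 77.5, 94.9 and 81.9 CPM. C9 was the lowest control for both Tlr4 and Cd14, C8 the highest control and N136 the highest silicosis library for both. The rise of Tlr4 was 1.13 on the log2 scale (SE 0.16, edgeR adjusted p = 0.00092), so the rise of Cd14 was the steeper of this receptor and coreceptor.

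Tlr2, which recognises lipoproteins together with Tlr1 or Tlr6, went from 22.3, 32.0 and 25.7 CPM in C7, C8 and C9 to 81.2, 106 and 84.9 CPM in N129, N136 and N138. It had the steepest rise of the 9 receptors, 1.76 on the log2 scale (SE 0.16, edgeR adjusted p = 0.000118). As for Tlr4 and Cd14, C8 was the highest control and N136 the highest silicosis library.

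Tlr1, the partner for triacylated lipoproteins, stood at 8.47, 8.23 and 12.2 CPM in the controls and at 22.2, 17.5 and 18.0 CPM in N129, N136 and N138. The groups did not overlap, and N129, not N136, was the highest. The log2 fold change was 0.99 (SE 0.18, edgeR adjusted p = 0.00374). Tlr6, the partner for diacylated lipoproteins, was the least abundant of the 10 genes, at 3.48, 3.73 and 4.12 CPM in the controls and 7.59, 8.19 and 10.6 CPM in N129, N136 and N138. N138 was here the highest library. Its log2 fold change was 1.22 (SE 0.19, edgeR adjusted p = 0.00176).

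Tlr1 and Tlr6 are neighbouring paralogs on chromosome 5, and parts of their messages are identical. Of the 50-base windows of the longest transcript, 15.3% for Tlr1 and 12.7% for Tlr6 also occur in another gene, and how the counting treated reads that fit both is not stated, so the separate values of the pair are uncertain to that extent. The longest run common to both transcripts is 229 bases, inside the coding part of each, and is shown because reads within it cannot be assigned to one gene (GENCODE M21, GRCm38, Tlr1 transcript positions 1939 to 2167 and Tlr6 positions 1652 to 1880).
Tlr1 and Tlr6 common run: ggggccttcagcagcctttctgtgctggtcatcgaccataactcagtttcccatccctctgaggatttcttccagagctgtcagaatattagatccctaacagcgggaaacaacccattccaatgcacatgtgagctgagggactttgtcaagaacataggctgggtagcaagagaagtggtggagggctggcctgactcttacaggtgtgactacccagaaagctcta

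Among the endosomal receptors, Tlr13, a mouse sensor of bacterial ribosomal RNA, rose about as steeply as Tlr2. It had 18.3, 20.8 and 23.1 CPM in C7, C8 and C9 and 59.9, 80.8 and 68.7 CPM in N129, N136 and N138. The log2 fold change was 1.75 (SE 0.14, edgeR adjusted p = 7.11e-05). Tlr7, a sensor of single-stranded RNA encoded on the X chromosome like Tlr8 and Tlr13, went from 21.4, 24.5 and 26.3 CPM in the controls to 40.0, 46.7 and 47.3 CPM in silicosis. Its rise was the smallest of the 7 called, 0.89 on the log2 scale (SE 0.12, edgeR adjusted p = 0.000756).

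Tlr8, the neighbour of Tlr7, had 21.1, 22.8 and 22.6 CPM in the controls and 22.0, 22.8 and 28.2 CPM in N129, N136 and N138. The groups overlapped: N129 lay among the controls, N136 was level with the highest control and N138 was above it (log2 fold change 0.13, SE 0.13, edgeR adjusted p = 0.449). Tlr3, the sensor of double-stranded RNA, had 38.7, 40.2 and 38.5 CPM in the controls and 35.8, 42.1 and 34.9 CPM in silicosis (log2 fold change -0.06, SE 0.10, edgeR adjusted p = 0.715). N136 was above and both other silicosis libraries were below the controls. An antisense transcript overlaps Tlr3 in GENCODE M21, and since no strand setting is given, reads of both strands cannot be told apart there.

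Tlr9, the sensor of unmethylated CpG DNA, had 16.7, 17.4 and 30.1 CPM in C7, C8 and C9, and 21.8, 20.5 and 18.2 CPM in N129, N136 and N138. C9 was above every other library, and the silicosis values lay between C8 and C9 (log2 fold change -0.08, SE 0.22, edgeR adjusted p = 0.8). Without C9 the log2 fold change was 0.24 and still not called (edgeR adjusted p = 0.22). C9 was also the control library with the most RNA of 5 B cell markers, 293 CPM in sum against 204 in C7 and 159.9 in C8. The same held for 4 plasmacytoid dendritic cell markers, with 25.8 CPM against 21.3 and 15.9. In N129, N136 and N138 the B cell sums were 338, 270 and 150.4 CPM. The plasmacytoid sums there were 22.3, 21.3 and 18.8 CPM. The part of these cells in the Tlr9 values was not tested.

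**Figure D2:**
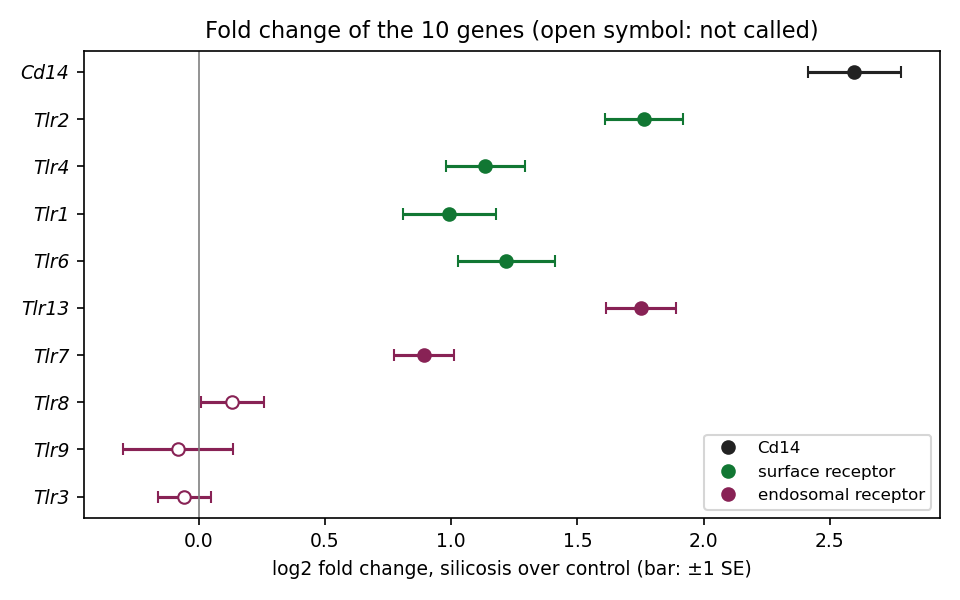
Log2 fold change, silicosis over control, of the 10 genes with bars of 1 SE, coloured by class, and open symbols for genes not called. Cd14 lies farthest to the right at 2.60, the 4 surface receptors lie between 0.99 and 1.76, and the endosomal receptors spread from -0.08 to 1.75.

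As classes, 4 of 4 surface receptors and 2 of 5 endosomal receptors were called higher, beside 15.3% of all tested mRNAs. Tlr5, which is also a surface receptor but not among the 10 genes, was not called and was lower in each silicosis library than in any control. With it the surface count was 4 of 5 and the surface median 1.13. No receptor outside the 10 genes was added to the endosomal class. Tlr11 and Tlr12, also outside them, were placed in neither class, so only the surface class was extended. They had log2 fold changes of -0.65 and -0.15 and were not called. The median log2 fold change was 1.18 over the 4 surface receptors and 0.13 over the endosomal receptors, beside 0.02 over all tested mRNAs. The endosomal class was not uniform, since Tlr13 and Tlr7 had fold changes within or close to the range of the surface class and the other 3 did not. No test of the difference between the classes was made, because the genes were chosen with earlier results in view.

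Levels of different genes were compared per length, as CPM per kb of the longest GENCODE transcript. In control lung, Cd14 stood highest at 12.4 ± 3.27 CPM per kb (SD, n = 3), followed by Tlr4 at 9.47 ± 1.99, Tlr3 at 8.88 ± 0.204 and Tlr2 at 8.85 ± 1.63. Library values of each neighbouring pair among these 4 overlapped. Tlr8 came next at 6.46 ± 0.264, below all Tlr2 values, and overlapped with Tlr7 at 6.18 ± 0.631, which in turn overlapped with Tlr9 at 6.14 ± 2.17. Tlr9 overlapped with Tlr13 at 5.11 ± 0.59. Tlr1 at 3.19 ± 0.743 and Tlr6 at 1.03 ± 0.0884 CPM per kb were lowest, each below every value of the gene before it.

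In silicotic lung the order was spread wider. Cd14 stood at 75.2 ± 9.59 CPM per kb (SD, n = 3), above every value of Tlr2 at 30.1 ± 4.39, and Tlr2 was above every value of Tlr4 at 20.8 ± 2.22. Tlr13 moved from the eighth place in control to the fourth, at 17.2 ± 2.59, and overlapped with Tlr4. Tlr7 followed at 11.5 ± 1.05 and was above Tlr3 at 8.54 ± 0.881. Tlr3, Tlr8 at 7.09 ± 0.984, Tlr1 at 6.35 ± 0.855 and Tlr9 at 5.79 ± 0.526 overlapped from each to the next, and Tlr6 at 2.39 ± 0.438 CPM per kb was again the lowest. The order depends on the length used: with the mean length of a gene's transcripts, Tlr4 at 21.8 and Tlr3 at 20.1 CPM per kb came before Cd14 at 16.3 in control, and Tlr4 at 47.8 came before Tlr13 at 31.8 and Tlr2 at 30.1 in silicosis.

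Summed per length, the 4 surface receptors came to 20.9, 25.6 and 21.0 CPM per kb in C7, C8 and C9 and to 55.4, 66.4 and 57.1 in N129, N136 and N138. The 5 endosomal receptors came to 29.7, 32.1 and 36.4 CPM per kb in the controls and 45.8, 54.0 and 50.4 in silicosis. Surface receptors therefore made up 40.8% ± 3.9 of the receptor sum in control and 54.3% ± 1.09 in silicosis (SD, n = 3). In each silicosis library their sum was above that of the endosomal receptors, and in each control below it. The crossing of equal sums was lost with the mean transcript length, where the shares were 37.6% and 49.2% and stood under 50% in all 6 libraries. With Tlr5 added to the surface sum, a choice made after seeing the data, the shares were 46.2% and 55.9% by the longest transcript, and 43.0% and 51.0% by the mean length. The surface share was higher in each silicosis library than in any control by all 4 ways of computing it.

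**Figure D3:**
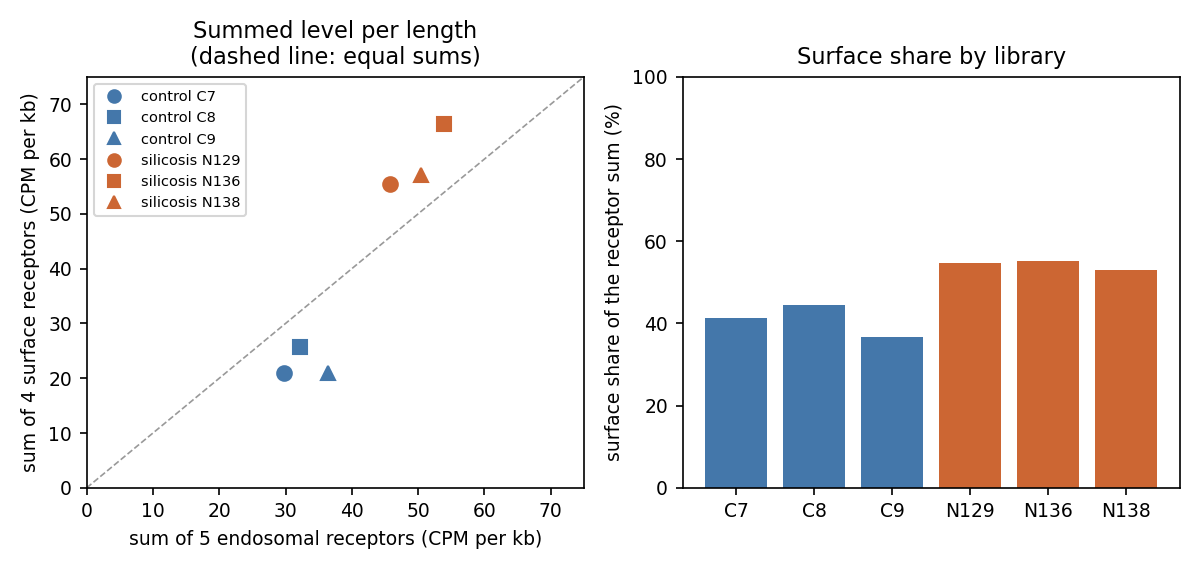
Left, the summed level of the 4 surface receptors against that of the 5 endosomal receptors in each library (CPM per kb, dashed line for equal sums); right, the surface share of the receptor sum in percent. Control libraries lie below the dashed line and silicosis libraries above it, with mean shares of 40.8% and 54.3%, but with the mean transcript length all 6 libraries lie below it.

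Receptors that work together, or are close relatives, were then compared within each library as a difference of log2 CPM, in 6 ratios tested by an exact two-sided permutation test. With 3 against 3 libraries this test cannot give a p below 0.1, so none of the 6 could pass 0.05. Cd14 minus Tlr4 went from -0.93 ± 0.18 in control to 0.54 ± 0.14 in silicosis (SD, n = 3; exact permutation p = 0.1, adjusted 0.15), a shift of 1.47 with no overlap between the groups. Ly96, or MD-2, is the small protein that completes the lipopolysaccharide pocket of Tlr4. Ly96 minus Tlr4 went the other way, from -3.87 ± 0.15 to -4.33 ± 0.12 (exact permutation p = 0.1, adjusted 0.15).

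The partners of Tlr2 were lower relative to Tlr2 in the silicosis mean, but libraries overlapped. Tlr1 minus Tlr2 differed by -0.76 between the groups and Tlr6 minus Tlr2 by -0.56 (exact permutation p = 0.2, adjusted 0.2 for each). Relative to Tlr7, Tlr8 went from -0.12 ± 0.10 to -0.88 ± 0.14 and Tlr9 from -0.22 ± 0.37 to -1.15 ± 0.25 (SD, n = 3; exact permutation p = 0.1, adjusted 0.15 for each). Both shifts had no overlap between the groups.

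**Figure D4:**
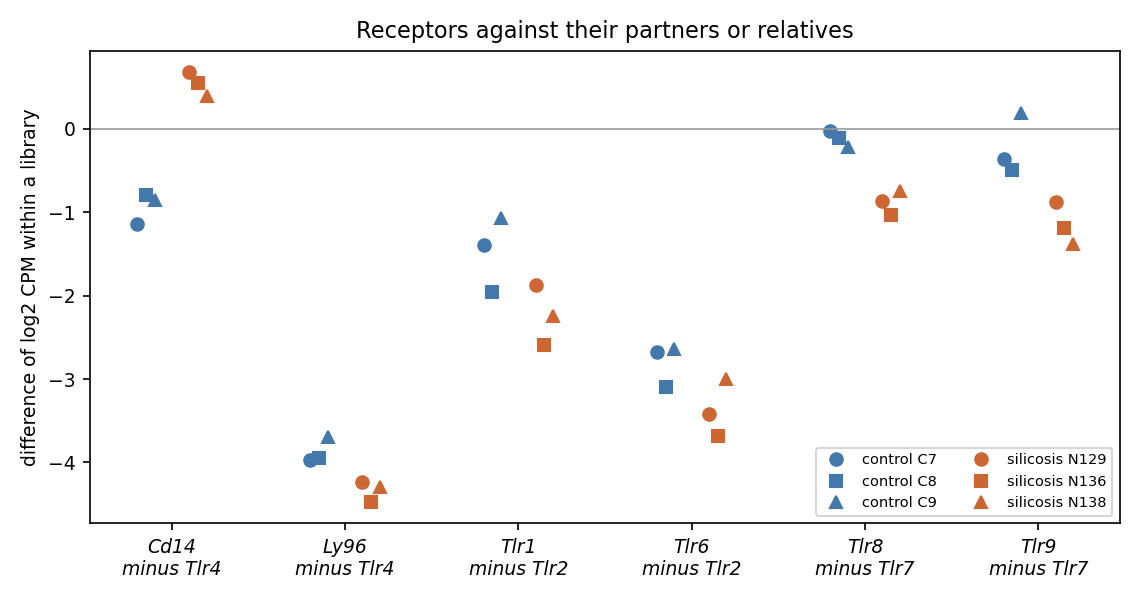
Difference of log2 CPM between 2 genes of the same library for 6 ratios, one symbol per library. Cd14 minus Tlr4 is below 0 in the 3 controls and above 0 in the 3 silicosis libraries, and Tlr8 and Tlr9 minus Tlr7 are lower in each silicosis library than in any control.

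Markers of cell types were measured in the same fit, whether or not they moved with these genes. The shares to read the counts against are the 15.3% of all tested mRNAs called higher and the 16.5% called lower. Of 10 markers of monocytes and interstitial macrophages, 8 rose, 1 fell and 1 did not pass. Their summed level was between 3212 and 3801 CPM in control and between 5592 and 10041 in silicosis, with N136 the highest. Most of it was Lyz2, at 2977 ± 314 CPM in control and 6595 ± 2413 in silicosis (SD, n = 3). The sum thus mainly follows this 1 gene, and 15.35% of the Lyz2 windows also occur in another gene. A sum without Lyz2 was not computed. Adgre1, the F4/80 antigen, rose by 0.67 (SE 0.16) on the log2 scale and Cd68 by 0.96 (SE 0.24), while Mertk fell by 0.44 (SE 0.10). Ptprc, the pan-leukocyte CD45, rose by 0.61 (SE 0.12). Of 7 alveolar macrophage markers, 1 rose, which is near the share of all mRNAs, 3 fell and 3 did not pass. The riser was Itgax, and Siglecf, Car4 and Ear2 fell. Other genes hold 41.0% of the Ear2 windows and 9.6% of the Itgax windows, so both counts are uncertain. Whether the 7 markers belong to alveolar macrophages alone in whole lung was not tested. The sums of the 7 markers ran from 549.5 to 652 CPM in control and from 529 to 831 in silicosis.

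Of 6 neutrophil markers, 3 rose and 0 fell, with sums from 84.0 to 149 CPM in control and 229 to 358 in silicosis. That separation rests on S100a8 and S100a9, which are also in the list of endogenous ligands below: without them, a sum taken after seeing the data, the other 4 markers overlapped, with 52.7 to 113 CPM in control and 97.2 to 167 in silicosis. Among these 4, Csf3r was called higher, by 0.88 on the log2 scale (SE 0.30, edgeR adjusted p = 0.0492). It had 29.3, 47.2 and 70.8 CPM in the controls and 71.9, 79.5 and 119 CPM in silicosis, without overlap. Cxcr2 was higher by 0.76 (SE 0.28) and was not called. Retnlg had the opposite sign, at -0.52 on the log2 scale (SE 0.34), and was not called. Ly6g was at 0.152 ± 0.157 and 0.696 ± 0.555 CPM (SD, n = 3), without overlap between the groups, and was not called. Of 5 B cell markers 1 rose, near the share of all mRNAs, with sums that overlapped between the groups, from 159.9 to 293 CPM and from 150.4 to 338 CPM. For plasmacytoid dendritic cells 0 of 4 rose and 1 fell, and for type 1 conventional dendritic cells 2 of 4 rose and 0 fell. The 2 risers were Batf3 and Wdfy4, while Xcr1 was flat at -0.005 on the log2 scale. Clec9a, at 68.2 ± 2.76 CPM in control and 49.9 ± 12.8 in silicosis (SD, n = 3), was lower in each silicosis library than in any control. It was not called. The plasmacytoid counts are near the shares of all mRNAs. Of 4 endothelial markers, 4 fell, from sums of 3106 to 3619 CPM to sums of 1592 to 1730. Other tissue markers fell as well. All 3 natural killer cell markers fell, and their summed level in silicosis was 0.424 times that in control. Of 5 alveolar epithelial markers 3 fell and 0 rose: Ager, of type 1 cells, went from 1241 ± 106 to 601 ± 121 CPM (SD, n = 3), Epcam fell by 0.40 and Sftpb by 0.33 on the log2 scale. Of the airway markers Scgb1a1, of club cells, fell by 1.18 (SE 0.27) and Foxj1, of ciliated cells, was not called. Of 4 fibroblast markers, Pdgfra and Tcf21 fell, Col1a2 rose and Dcn did not pass, and 0 of 3 T cell markers were called. No list had a marker at 0 in all libraries. The part of these cell types in the changes of the 10 genes was not tested.

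The remaining 3 Toll-like receptors of the mouse were measured too, and none was called. Tlr5, the flagellin receptor at the cell surface, had 20.3, 22.7 and 20.6 CPM in the controls and 13.5, 12.2 and 19.6 CPM in N129, N136 and N138, so that all silicosis values were below all controls. Its log2 fold change was -0.49 (SE 0.18, edgeR adjusted p = 0.0629), and it was called with DESeq2 (adjusted p = 0.0299), with limma-voom (adjusted p = 0.0422) and without N138 (edgeR adjusted p = 0.00306). Tlr11 and Tlr12, sensors of profilin in mouse, had log2 fold changes of -0.65 (SE 0.31, edgeR adjusted p = 0.144) and -0.15 (SE 0.18, edgeR adjusted p = 0.57).

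The wider pathway was described by 9 lists, these 3 receptors included. Of 80 listed genes 79 were tested, and 46 rose, 3 fell and 30 did not pass, with a median log2 fold change of 0.54 beside 0.02 over all tested mRNAs. Here and in the lists that follow, the counts stand beside 15.3% higher and 16.5% lower over all tested mRNAs. Of 6 ligand-binding partners, 3 rose and 0 fell. Lbp, the plasma protein that loads lipopolysaccharide onto Cd14, rose by 0.68 on the log2 scale (SE 0.15), and Rftn1, raftlin, by 0.63 (SE 0.10). The third was Ly96, with 2.53, 2.97 and 2.30 CPM in the controls and 4.12, 4.27 and 4.15 in silicosis. Ly96 rose by 0.68 (SE 0.21, edgeR adjusted p = 0.037).

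Of 12 genes of endosomal trafficking and processing, 7 rose, 1 fell and 4 did not pass. Unc93b1, the chaperone that takes the endosomal receptors to their compartment, had 87.1 ± 7.97 CPM in control and 122 ± 16 in silicosis (SD, n = 3), a rise of 0.48 on the log2 scale (SE 0.12). Proteases known to cut these receptors were among the risers: Ctsb, cathepsin B, rose by 1.52 (SE 0.20) and Ctss, cathepsin S, by 1.42 (SE 0.23). Slc15a3, an endolysosomal peptide and histidine transporter, rose by 1.31 (SE 0.12). Other genes hold 15.4% of the Ctsb windows and 30.9% of the Slc15a3 windows, so both counts are uncertain. Cnpy4 fell by 0.47 (SE 0.13), a call that ended without C8 (edgeR adjusted p = 0.116) or without N129 (edgeR adjusted p = 0.0879).

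Among 6 adaptors, 3 rose and 0 fell. Pik3ap1, which links the receptors to PI3 kinase, rose by 0.71 on the log2 scale (SE 0.09), and Myd88, the adaptor of nearly all Toll-like receptors, by 0.47 (SE 0.14). Ticam2, which couples Tlr4 to Ticam1, rose by 0.76 (SE 0.19), but 19.0% of its windows are shared with another gene and the call ended without C8 (edgeR adjusted p = 0.0557). Ticam1 itself, the adaptor of Tlr3, had 25.3 ± 2.84 CPM in control and 23.2 ± 1.62 in silicosis and was not called. Of 15 kinases and ubiquitin ligases, 6 rose, 1 fell and 8 did not pass. Ikbke, an IKK-related kinase upstream of interferon genes, rose by 1.06 (SE 0.17) and Traf3 by 0.63 (SE 0.11). Tab2, an adaptor of the kinase Map3k7, fell by 0.38 (SE 0.10), and without N129 it was not called (edgeR adjusted p = 0.0522). Of 4 interferon regulatory factors, Irf7 rose by 1.21 (SE 0.26) and Irf5 by 0.61 (SE 0.13), and 2 did not pass.

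Target genes showed the largest shifts of the 9 lists. Of 16 listed, 15 were tested and all 15 rose, with a median log2 fold change of 2.24 and a range from 0.89 to 7.25; Ifnb1 was not tested. Il1b had 16.4 ± 2.3 CPM in control and 77.5 ± 7.38 in silicosis (SD, n = 3), a rise of 2.24 on the log2 scale (SE 0.13, edgeR adjusted p = 1.63e-05). Cxcl2, a neutrophil chemoattractant, had 0.199, 0.335 and 0.313 CPM in the controls and 63.5, 41.5 and 25.5 CPM in N129, N136 and N138. Like Tlr1, and unlike the other called members, Cxcl2 was highest in N129, and so was the sum of the 15 targets, at 869 CPM against 543 in N136 and 396 in N138. Many of these genes also answer to other cytokines, and a share due to Toll-like receptors was not measured.

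Of 10 negative regulators of the pathway, 5 rose and 0 fell. Tnip3, an A20-binding protein, rose by 1.96 on the log2 scale (SE 0.26) and Zc3h12a, the RNase regnase-1, by 1.10 (SE 0.13). Irak3, a kinase-like brake found in macrophages, had 17.7 ± 5.02 CPM in control and 18.9 ± 1.85 in silicosis (SD, n = 3) and was not called. Among 8 proteins reported as endogenous ligands, 5 rose and 1 fell. S100a8, a neutrophil and monocyte alarmin, rose by 2.30 (SE 0.27) and Tnc, tenascin C, with 24.7, 31.4 and 27.4 CPM in the controls and 78.8, 92.5 and 64.9 CPM in silicosis, was called higher too. Hmgb1 fell by 0.65 (SE 0.10), and 40.9% of its windows occur in other genes, so that its counts are uncertain.

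**Figure D5:**
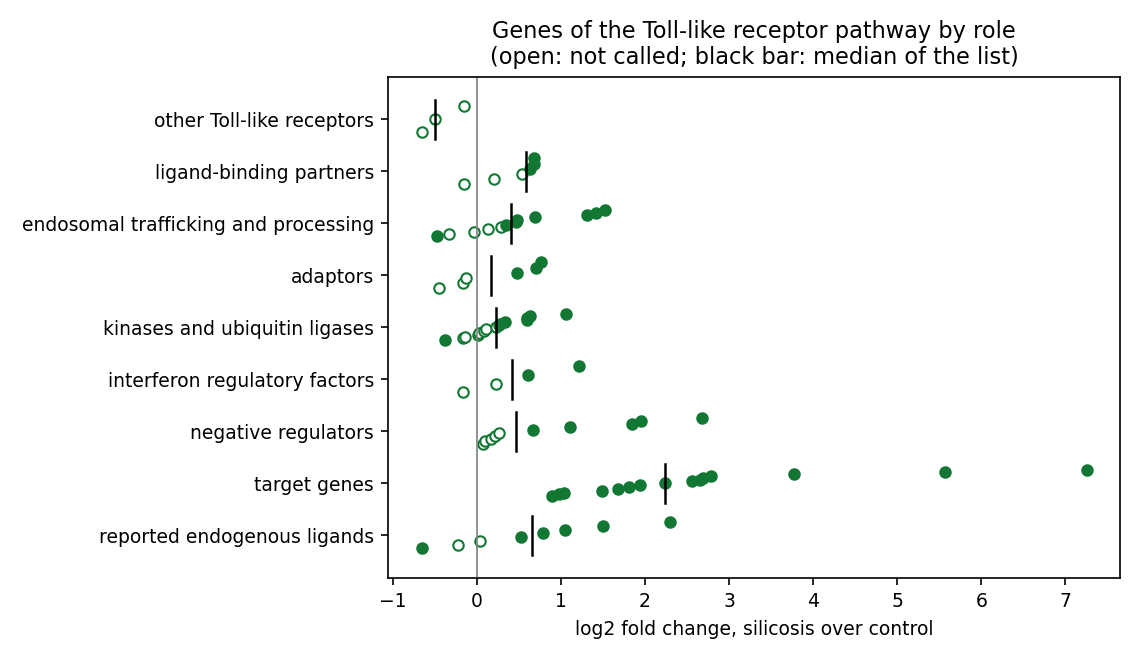
Log2 fold change, silicosis over control, of the 79 tested pathway genes in 9 lists, one point per gene, open where not called, with a black bar at each list's median. The target genes lie farthest to the right, with a median of 2.24, and the 3 other Toll-like receptors lie left of 0.

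Genes whose profile over the 6 libraries was nearest to a member's were found by the Euclidean distance between log2 CPM values centred on each gene's mean. For Cd14 they were Sostdc1 (distance 0.40), which stood at only 0.0659 ± 0.0259 CPM in control, Lhfpl2 (0.51) and Trem1 (0.56), the last an activating receptor of neutrophils and monocytes. For Tlr2 they were Arsi (0.27), Mmp19 (0.31), a matrix metalloproteinase, and Rnf149 (0.31). Those nearest to Tlr13 were Slc37a2 (0.17), a sugar phosphate exchanger of macrophages, Tnfrsf26 (0.18) and Sh2b2 (0.28). All 9 were called higher by edgeR, as the distance rewards a like fold change, and nothing on shared control follows from it.

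The authors' deposited table gives log2 fold changes of 2.59 for Cd14, 1.76 for Tlr2, 1.74 for Tlr13, 1.21 for Tlr6 and 1.13 for Tlr4, and marks these 5 as up. In the authors' deposited table Tlr1 at 0.99 and Tlr7 at 0.88 are not marked, with adjusted p-values of 6.11e-06 and 3.04e-09. No gene that table of the authors' marks as changed has an absolute log2 fold change under 1, so both lie under the lowest value it marks. In that table of the authors', Tlr3, Tlr8 and Tlr9 have log2 fold changes between -0.09 and 0.13 and are not marked.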

How the data were processed

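Whole-lung RNA of 3 control and 3 silicosis libraries was grouped by the treatment in the labels. The deposited mRNA table holds raw whole-number counts per gene symbol, made by the authors. The authors' deposited comparison table holds log2 fold changes and adjusted p-values. Per the submitters' processing notes, which assign no roles, the tools were featureCounts 2.0.0, DESeq2 1.36.0, Trimmomatic 0.39, Bowtie2 and HISAT2, with the build GRCm39. For the annotation, the strand setting and reads that fit 2 genes, nothing is given in the sources used here.

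From the counts, edgeR 4.0.16 (R 4.3.3) tested silicosis against control over the 15808 mRNAs kept by filterByExpr, with TMM factors, the quasi-likelihood F test and Benjamini-Hochberg adjustment. The SE is the log2 fold change divided by the square root of F. Ratios within a library used log2 CPM with a prior count of 0.5 and scipy 1.17.1. Pairs of libraries within a group were distinct, with a chi-square per degree of freedom of at least 15.0. Lengths and shared windows (50 bases every 5) came from GENCODE M21 on GRCm38, while the authors' build was GRCm39.

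The members and lists were chosen with earlier results of these data known. Named are all members, up to 2 called genes per direction and list with the lowest p (or the most expressed), the 3 other receptors, and the 3 nearest profiles for Cd14 and for the steepest surface and endosomal receptor, leaving out Gm, LOC, Rik and immunoglobulin symbols. Ly96, Unc93b1, Ctss, Myd88, Ticam1, Irak3 and the markers' examples were named after their values were seen. As alternatives, each library was left out, limma-voom (limma 3.58.1) or DESeq2 1.42.0 replaced edgeR, DESeq2 size factors replaced TMM, and the filter was dropped, besides a prior count of 2 and the mean transcript length. Adding Tlr5 to the surface class and leaving S100a8 and S100a9 out of the neutrophil sum were chosen after seeing the data. The fit was tested on simulated data. No replicate numbers are shared between groups, so no paired fit was made.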

Additional observations from a re-analysis of the deposited data

How the results depend on the processing

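The 7 called members stayed called, and Tlr3, Tlr8 and Tlr9 uncalled, with DESeq2 size factors, no filter, DESeq2, limma-voom and each of the 6 libraries left out. Their direction held as well, except that Tlr9 went from -0.08 to 0.24 on the log2 scale without C9, the upper end of a range from -0.24 to 0.24 over the left-out libraries. Left-out libraries moved the count of pathway genes called lower between 1 and 5, against 3 with all libraries. It was 1 without N129 and 5 without N136, and the cause was not tested. Pathway genes called higher numbered 46 with all libraries and 35 without C7 or without C8. The background moved too: 2421 mRNAs were called higher with all libraries, 1625 without C7, 1617 without C8 and 2580 without N138. The 6 ratios kept their direction with a prior count of 2 and without any one library.

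Levels per kb depend on the transcript length by construction. With the mean length, control levels were 4.65 for Tlr1, 21.8 for Tlr4, 1.83 for Tlr6, 20.1 for Tlr3, 11.9 for Tlr7, 13.9 for Tlr8, 9.43 for Tlr13 and 16.3 for Cd14. In silicosis they were 9.25 for Tlr1, 47.8 for Tlr4, 4.27 for Tlr6, 19.3 for Tlr3, 22.0 for Tlr7, 15.3 for Tlr8, 31.8 for Tlr13 and 98.4 for Cd14. The surface share in silicosis was then 49.2%. Tlr5 was added to the surface receptors after seeing the data. The surface share was then 46.2% in control and 55.9% in silicosis by the longest transcript. By the mean length it was 43.0% and 51.0%. Depth limits Tlr6 most, with 140 to 158 counts per control library.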
